A study of Homo sapiens with 17 samples.

Results

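The genes described are 10 non-cytokine effector targets of the transcription factor NF-kB, namely ICAM1, VCAM1, SDC4, CD83, IER3, TNFAIP8, SOD2, TNFAIP2, GCH1 and LCN2. They were found by their symbols in the deposited gene table, where they filled 11 of 58870 entries, because SOD2 has a second entry without a count in any library. All 10 genes passed the filter on low counts that left 15365 genes for testing. RNA came from MDA-MB-231, an established line of triple-negative breast cancer cells that the labels call mesenchymal and basal B. The cells received 45 nM TRAIL, a TNF family ligand whose death receptors can trigger apoptosis, which the labels call a suboptimal dose, meant to leave live cells to profile. RNA was taken at 0, 1, 3, 6, 12 and 24 h, with 3 libraries analysed at each time except 1 h, which had 2. Every library, those at 0 h included, carries the same treatment label and comes from the same line, and no later time had an untreated library, so time with TRAIL and time in culture cannot be told apart.

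NF-kB proteins are paired transcription factors that inhibitors of the IkB family hold in the cytoplasm until kinases mark the inhibitors for destruction. The pathway is best known for switching on inflammatory genes after signals from TNF family ligands or microbes, and it also induces its own inhibitors. Its effector targets include adhesion molecules that hold leukocytes, proteins that protect cells from death or oxidants, and secreted defence proteins.

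Library totals ran from 13731497 counts (3 h, replicate 2) to 19234939 counts (12 h, replicate 2), with 20284 to 21041 genes detected, and edgeR's common biological coefficient of variation came to 7.06%. Mitochondrial genes took 5.53% to 8.37% of counts at 0 h, 7.65% to 9.71% at 1 h and 7.99% to 8.97% at 3 h. That share was 3.97% to 5.45% at 6 h, 5.01% to 6.80% at 12 h and 3.66% to 4.14% at 24 h, so all libraries at 6 and 24 h lay below all at 0 h. Replicates 2 and 3 at 6 h and replicates 2 and 3 at 24 h stood closer together than the other replicate pairs. Their chi-square per gene, which is near 1 for sampling noise alone, was 1.55 and 1.68, against 3.86 to 14.6 for the others. The labels do not say that replicates came from separate cultures, so p-values measure only the spread between these libraries, which may be technical. The markers of the line were present: VIM stood at 2495 to 3724 CPM (counts scaled to a common library total) and ZEB1 at 31.9 to 65.8 CPM, while ESR1 had at most 2 counts and PGR at most 1. ERBB2 was at 56.4 to 70.9 CPM and EPCAM at 13.1 to 19.3 CPM. Of the leukocyte markers, PTPRC had at most 5 counts and CD3E 0.

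Levels below are CPM scaled by TMM, and differences are log2 fold changes with their standard error (SE). Genes count as called at an adjusted p below 0.05 in edgeR's quasi-likelihood test, with Benjamini-Hochberg adjustment over all 15365 genes. All comparisons with 0 h share the same 3 libraries at 0 h. Libraries that do not overlap those at 0 h are common. They were found for 19.1%, 33.9%, 44.1%, 32.6% and 45.8% of all genes tested at 1, 3, 6, 12 and 24 h. Libraries of neighbouring times did not overlap for 33.6% (3 h against 1 h) and 52.3% (6 h against 3 h) of all genes tested. The shares were 37.6% for 12 h against 6 h and 30.0% for 24 h against 12 h. On a single gene, an exact two-sided permutation test of 3 libraries against 3 cannot go below p = 0.100. In bulk RNA, a change in how many cells express a gene and a change in RNA per cell cannot be told apart.

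Over all times together, 8 of the 10 genes varied, beside 64.2% of all genes tested. ICAM1 varied most, ranking 15 among the 15365 genes by its F statistic of 130 (adjusted p = 1.9e-11). CD83 ranked 204, IER3 240 and LCN2 275, while GCH1 (adjusted p = 0.154) and TNFAIP8 (adjusted p = 0.693) were not called. Against 0 h, 1 gene was called at 1 h and was higher, beside 0.312% of all genes called and 0.260% called higher. At 3 h 5 were called, all higher, beside 17.7% called and 9.04% called higher. At 6 h 4 were called higher and 1 lower, beside 16.9% and 13.2% of all genes (30.1% in either direction). The calls at 12 h were 4 higher and 1 lower, beside 5.96% and 6.48% (12.4% in either direction). Those at 24 h were 6 higher and 1 lower, beside 18.0% and 17.1% (35.1% in either direction). LCN2 was the gene called lower at 6, 12 and 24 h. The median log2 fold change of the 10 genes was 0.049 at 1 h, 0.18 at 3, 6 and 12 h and 0.20 at 24 h, with the median over all genes between -0.022 and -0.0017. The number of the 10 genes called at 12 h was 3 without 0 h replicate 1 or 2 or 12 h replicate 1. Called at 3 or more of the 5 times were 6 of the 10 genes, beside 8.94% of all genes tested.

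**Figure D1:**
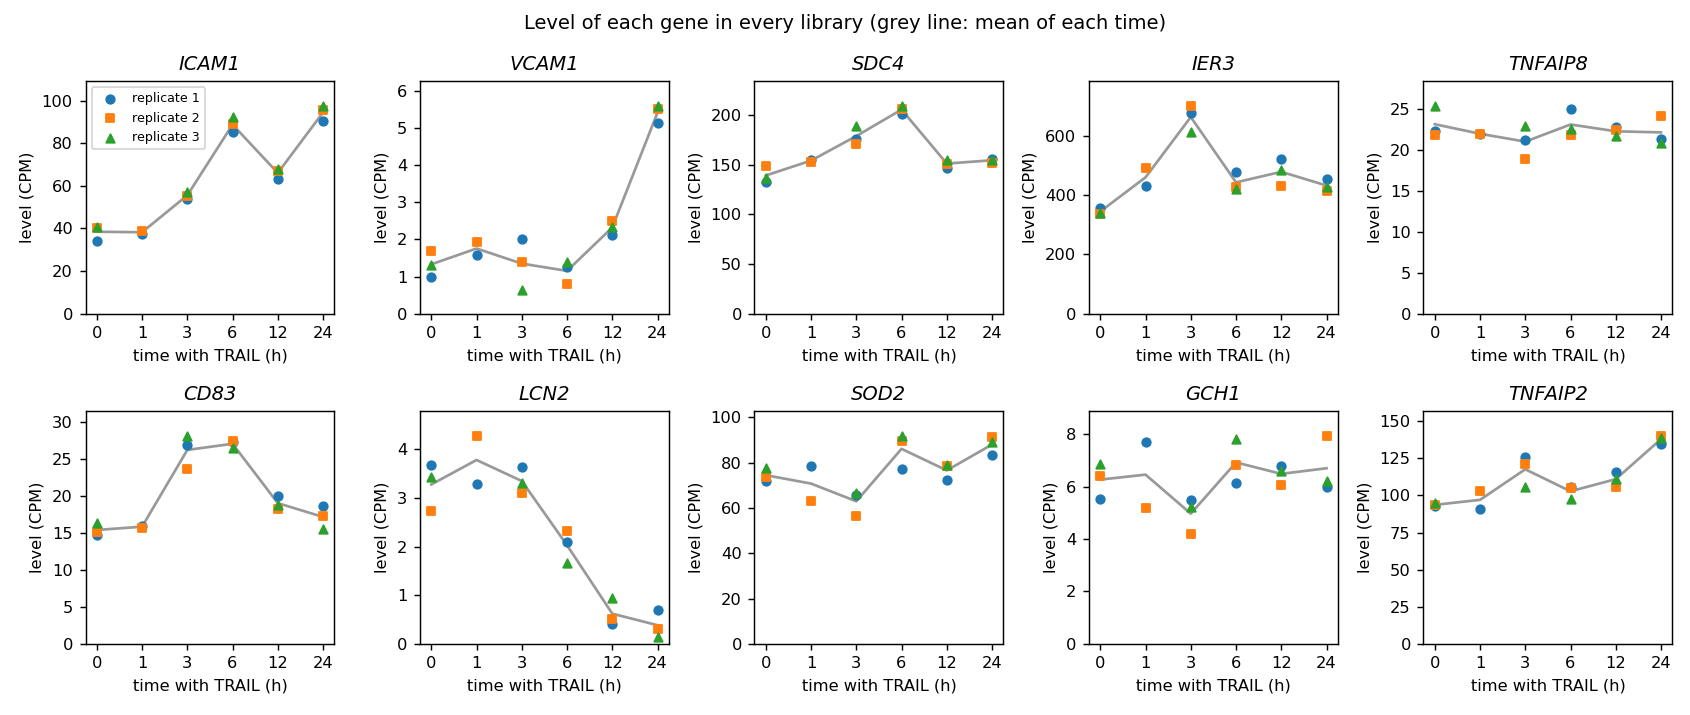
Level of each gene in CPM (vertical axes, each from 0) against hours with TRAIL (horizontal axes), evenly spaced whatever the interval, with 1 point per library, shaped by replicate number, and a grey line through the means. ICAM1 climbs to 6 h, dips at 12 h and climbs again to 24 h, IER3 peaks at 3 h, VCAM1 rises at 24 h and LCN2 sinks from 6 h on.

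Short motifs bound by NF-kB were searched in RefSeq promoter windows (GRCh38.p14, 250 bases before to 50 after the start site) on both strands. The table held 14 windows of 8 of the genes, and IER3 and GCH1 were not matched. The NF-kB consensus of 10 bases was present in 4 of the 14 windows and in 5.91% of all 35116 windows. The shorter palindrome GGAANTTCC, which can overlap the consensus, was present in 2 of the 14 and in 0.965% of all. Either motif was found in 5 of the 14 windows, beside 6.62% of all windows. These 5 windows belong to ICAM1, VCAM1, CD83, SDC4 and LCN2. Sites are shown for each of these 5 genes, whatever the size of its differences. Each line runs 5′ to 3′ on the gene's strand with the match in capitals and 10 flanking bases on each side.
ICAM1: gctttagcttGGAAATTCCggagctgaag
VCAM1: tccccttgaaGGGATTTCCCtccgcctctg
SDC4: cgcttccactGGGGAATTCCgggcggggtg
CD83, consensus: gctgcccgccGGGGAATCCCccgggctggc
CD83, palindrome: tggcgcgcagGGAAGTTCCcgaacgcgcg
LCN2: cagcactccgGGAATGTCCCtcactctccc
The ICAM1 stretch is chr19:10270924-10270952 and its match begins at -186 from the start site, and that of VCAM1 is chr1:100719670-100719699 with the match at -62. The SDC4 stretch is chr20:45348502-45348531 on the minus strand, at -97. In CD83 the stretches are chr6:14117686-14117715 and chr6:14117712-14117740, at -76 and -50, and further matches of the consensus overlap the first at -75 and -74. The LCN2 stretch is chr9:128149268-128149297, at -175, and its match lies on the opposite strand. A match was thus held by ICAM1, VCAM1, SDC4 and CD83, which were called higher at some time, and by LCN2, which was called lower. TNFAIP2 and SOD2, also called higher at some time, and TNFAIP8, which was not called, held none. A match is a description of the letters and no evidence of binding.

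**Figure D2:**
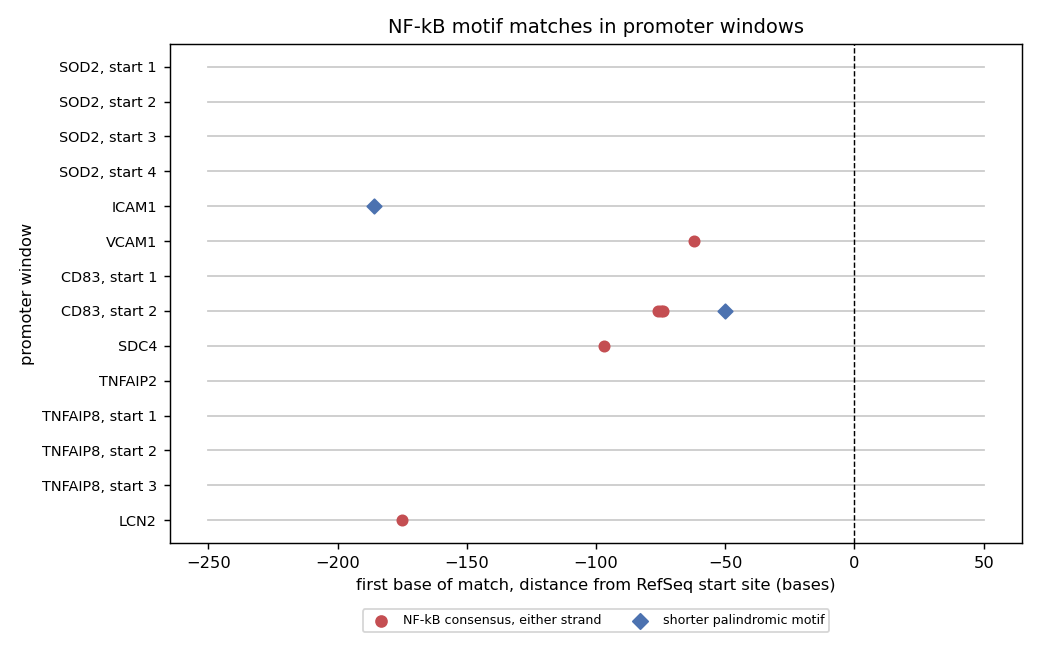
Position of each motif match (horizontal axis, bases from the RefSeq start site) in each of the 14 promoter windows (rows, grey lines). Circles mark the NF-kB consensus and diamonds the shorter palindrome, and matches lie between -186 and -50.

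ICAM1 (ENSG00000090339; GENCODE 29, GRCh38 chromosome 19, 10270835 to 10286615, plus strand) encodes the surface receptor to which leukocyte integrins bind. It stood at 34.3, 40.4 and 40.6 CPM in the 3 libraries at 0 h, and at 37.5 and 38.9 CPM at 1 h. The libraries read 53.9, 55.4 and 57.3 CPM at 3 h, 85.3, 88.8 and 92.1 CPM at 6 h, 63.0, 67.0 and 68.1 CPM at 12 h, and 90.2, 95.7 and 97.5 CPM at 24 h. From 3 h on, every library lay above all libraries at 0 and 1 h, and those at 12 h lay below all at 6 and 24 h. At 1 h its log2 fold change was -0.0088 (adjusted p = 0.995). It rose by 0.53 (SE 0.0689, adjusted p = 2.6e-05) at 3 h, 1.21 (SE 0.0671, adjusted p = 4.8e-10) at 6 h, 0.78 (SE 0.0675, adjusted p = 5.3e-07) at 12 h and 1.30 (SE 0.0671, adjusted p = 7.4e-11) at 24 h, the last being 2.46-fold. At 24 h, 99.5% of the genes tested had a lower fold change than ICAM1.

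Steps between times divide this course into a climb, a dip and a second climb. ICAM1 rose by 0.68 from 3 to 6 h (adjusted p = 1.0e-06), fell by 0.43 from 6 to 12 h (adjusted p = 1.4e-04) and rose by 0.52 from 12 to 24 h (adjusted p = 8.7e-05). The levels at 6 and 24 h were not told apart (0.090, SE 0.0637, adjusted p = 0.344). From 6 h on the mitochondrial share of counts was 3.97% to 5.45% at 6 h, 5.01% to 6.80% at 12 h and 3.66% to 4.14% at 24 h. Its range at 12 h lay above that at 24 h but overlapped that at 6 h. At 3 h that share was 7.99% to 8.97%, against 5.53% to 8.37% at 0 h. Its part in the levels of ICAM1 and of the other genes was not tested. Counts of ICAM1 were fractional in 14 libraries, and the antisense gene AC011511.5, which overlaps 815 of its exon bases, had at most 16.04 counts.

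VCAM1 (ENSG00000162692; chromosome 1, 100719742 to 100739045, plus strand) encodes a second adhesion receptor for leukocytes, best known from activated endothelium. Its levels were low throughout, with 9 to 89 counts in a library. The libraries read 0.996, 1.68 and 1.31 CPM at 0 h, 1.58 and 1.93 CPM at 1 h, 2.00, 1.40 and 0.645 CPM at 3 h, and 1.26, 0.796 and 1.40 CPM at 6 h. They read 2.13, 2.51 and 2.33 CPM at 12 h and 5.15, 5.52 and 5.60 CPM at 24 h. The groups at 1, 3 and 6 h overlapped that at 0 h, and the 24 h libraries stood above every other library. VCAM1 rose 4.06-fold at 24 h (log2 fold change 2.02, SE 0.252, adjusted p = 1.4e-05), above 99.8% of genes tested. At 12 h the difference was 0.81 (SE 0.274, adjusted p = 0.0570), which passed the threshold without 3 h replicate 1 or 3 (0.80 in both, adjusted p = 0.0243 to 0.0429) and in fits without a filter or of the 2 groups alone (0.81). DESeq2 gave the same value and no adjusted p. The step from 12 to 24 h was a rise of 1.21 (adjusted p = 0.00277). The summed level of the 4 endothelial markers was also highest at 24 h, at 6.34 to 7.44 CPM against 3.36 to 4.98 CPM at 0 h. That sum was 4.18 to 4.60 CPM at 1 h, 2.37 to 3.11 CPM at 3 h, 4.80 to 5.57 CPM at 6 h and 4.62 to 5.72 CPM at 12 h. The mean of VCAM1 at 1, 3, 6 and 12 h was 1.76, 1.35, 1.15 and 2.32 CPM, against 1.33 CPM at 0 h. Of the endothelial markers, CDH5 had at most 2 counts and VWF at most 5 in any library, PECAM1 11 to 68 and KDR 19 to 73. The part of these markers in the result was not tested.

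SDC4 (ENSG00000124145; chromosome 20, 45325288 to 45348424, minus strand) encodes syndecan, a heparan sulphate proteoglycan of the cell surface. Its libraries read 132, 149 and 136 CPM at 0 h, 155 and 153 CPM at 1 h, 176, 171 and 189 CPM at 3 h, 201, 206 and 209 CPM at 6 h, 147, 151 and 155 CPM at 12 h, and 156, 152 and 155 CPM at 24 h. The 3 and 6 h libraries lay above all others, and those at 12 h overlapped the range at 0 h. SDC4 rose by 0.36 at 3 h (SE 0.0552, adjusted p = 1.7e-04) and 0.56 at 6 h (SE 0.0549, adjusted p = 7.8e-07), then fell by 0.44 from 6 to 12 h (adjusted p = 1.5e-05). At 24 h it was called at 0.15 (SE 0.0551, adjusted p = 0.0368). That call was lost without 0 h replicate 1 or 3 or any 1 of the 24 h replicates (0.11 to 0.16, adjusted p = 0.0648 to 0.178). It was also lost with upper-quartile scaling, without a filter, in a 2-group fit and with close pairs averaged (0.13 to 0.15, adjusted p = 0.0641 to 0.130).

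CD83 (ENSG00000112149; chromosome 6, 14117256 to 14136918, plus strand) encodes a surface protein best known as a marker of mature dendritic cells. Its libraries read 14.7, 15.1 and 16.4 CPM at 0 h, 16.0 and 15.7 CPM at 1 h, and 26.9, 23.7 and 28.1 CPM at 3 h. They read 27.3, 27.4 and 26.5 CPM at 6 h, 20.0, 18.3 and 18.8 CPM at 12 h, and 18.7, 17.3 and 15.5 CPM at 24 h. CD83 thus formed a plateau at 3 and 6 h, where all libraries lay above those of the other times, and at 24 h its range again overlapped that at 0 h. It rose by 0.77 at 3 h (SE 0.0851, adjusted p = 3.9e-06) and 0.81 at 6 h (SE 0.0836, adjusted p = 1.5e-06), and fell by 0.51 from 6 to 12 h (adjusted p = 2.3e-04). At 12 h it was still called higher than at 0 h (0.30, SE 0.0857, adjusted p = 0.0261). That call was lost without 0 h replicate 1 or 2 or any 1 of the 12 h replicates (0.26 to 0.33, adjusted p = 0.0538 to 0.110). The value at 24 h was 0.16 (SE 0.0871, adjusted p = 0.166), and scaling by library size alone or removing the trend with gene length took it past the threshold (0.23 to 0.28, adjusted p = 0.0191 to 0.0483).

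IER3 (ENSG00000137331; chromosome 6, 30743199 to 30744554, minus strand) is an immediate-early gene whose product modulates cell survival. It was the only one of the 10 genes called at 1 h. Its libraries read 357, 336 and 341 CPM at 0 h, 430 and 490 CPM at 1 h, 678, 701 and 612 CPM at 3 h, 479, 429 and 421 CPM at 6 h, 521, 431 and 484 CPM at 12 h, and 456, 413 and 428 CPM at 24 h. Every later library lay above all at 0 h, and the 3 h libraries lay above all others. IER3 rose by 0.42 at 1 h (SE 0.0836, adjusted p = 0.0292) and 0.94 at 3 h (SE 0.0758, adjusted p = 4.8e-08). It then fell by 0.58 from 3 to 6 h (adjusted p = 2.3e-05) and remained above 0 h by 0.36 at 6 h (adjusted p = 0.00164), 0.47 at 12 h (adjusted p = 4.8e-04) and 0.33 at 24 h (adjusted p = 0.00283). The call at 1 h was lost without any 1 of the 0 h replicates, 1 h replicate 2 or 3 h replicate 1 (0.31 to 0.44, adjusted p = 0.0555 to 0.937). It was also lost with the close pairs of libraries at 6 and 24 h each averaged (0.41, adjusted p = 0.0794). Counts of IER3 were fractional in all 17 libraries, and its antisense partner IER3-AS1, overlapping 359 exon bases, had at most 11.85 counts.

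**Figure D3:**
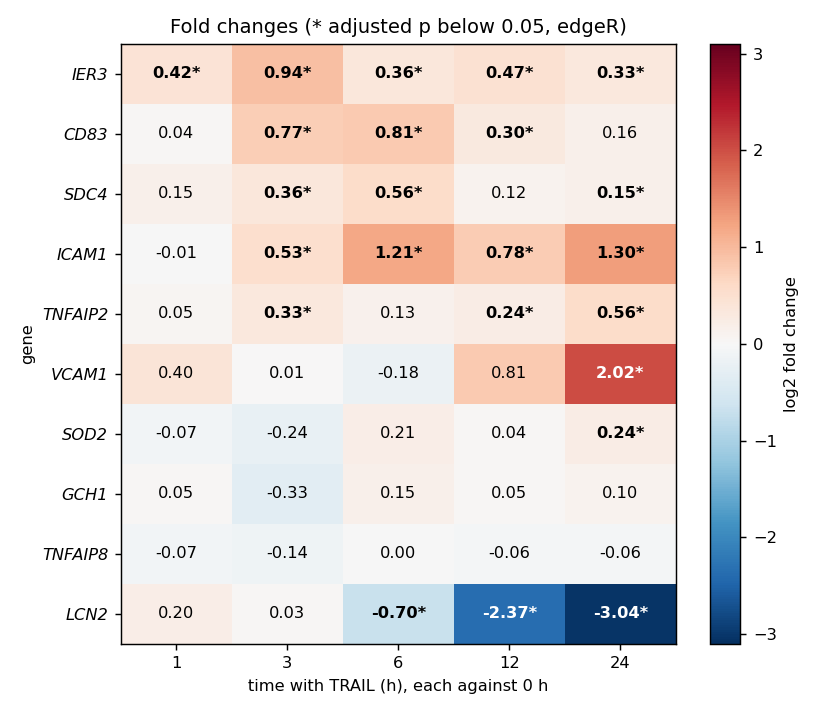
Log2 fold change against 0 h (colour and number) of each gene (rows) at each later time (columns), with an asterisk where the adjusted p was below 0.05. IER3 has the only asterisk at 1 h, ICAM1 carries asterisks from 3 h on, and LCN2 is the row of negative calls.

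TNFAIP8 (ENSG00000145779; chromosome 5, 119268692 to 119399688, plus strand), whose product restrains caspase activity, was not called at any time. Its libraries ranged from 18.9 to 25.4 CPM over the whole course. Log2 fold changes against 0 h lay between -0.14 (3 h) and -0.00034 (6 h), with SE of 0.0871 to 0.0987, and no alternative processing brought a call.

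SOD2 (ENSG00000112096; chromosome 6, 159669057 to 159745186, minus strand) encodes the manganese superoxide dismutase of mitochondria, which removes superoxide. Its libraries read 72.1, 73.8 and 77.5 CPM at 0 h, 78.3 and 63.2 CPM at 1 h, 65.6, 56.6 and 66.6 CPM at 3 h, 77.2, 89.4 and 91.7 CPM at 6 h, 72.3, 78.3 and 79.1 CPM at 12 h, and 83.5, 91.2 and 89.3 CPM at 24 h. The 3 h libraries lay below all at 0 h and the 24 h libraries above them, while those at 1, 6 and 12 h overlapped the range at 0 h. SOD2 rose by 0.45 from 3 to 6 h (adjusted p = 3.5e-04). Against 0 h the value was -0.24 at 3 h (SE 0.0842, adjusted p = 0.0516), and it passed the threshold in 13 of 29 other settings (-0.31 to -0.19). At 6 h it was 0.21 (SE 0.0822, adjusted p = 0.0596), past the threshold in 6 of them. The call at 24 h (0.24, SE 0.0822, adjusted p = 0.0283) was lost without 0 h replicate 1 or 2 or 24 h replicate 2 or 3 (0.21 to 0.23, adjusted p = 0.0719 to 0.102). It was 0.21 with close pairs averaged (adjusted p = 0.108) and 0.033 with the trend with gene length removed (adjusted p = 0.712). WTAP on the opposite strand overlaps 298 of the exon bases of SOD2 and had up to 1426.77 counts, and the strand setting of the counting is not given in the sources used here.

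TNFAIP2 (ENSG00000185215; chromosome 14, 103123442 to 103137439, plus strand) encodes a cytoplasmic protein induced by TNF. Its libraries read 93.1, 93.3 and 94.6 CPM at 0 h, 91.1 and 103 CPM at 1 h, 126, 121 and 106 CPM at 3 h, 106, 105 and 97.5 CPM at 6 h, 116, 106 and 111 CPM at 12 h, and 135, 140 and 139 CPM at 24 h. From 3 h on all libraries exceeded those at 0 h, and the 24 h libraries were the highest of all. TNFAIP2 rose by 0.33 at 3 h (SE 0.0655, adjusted p = 0.00192) and 0.56 at 24 h (SE 0.0649, adjusted p = 6.6e-06), with a step of 0.32 from 12 to 24 h (adjusted p = 0.00466). At 6 h the value was 0.13 (adjusted p = 0.134). The call at 12 h (0.24, SE 0.0650, adjusted p = 0.0188) was lost without 0 h replicate 1 or 2 or 12 h replicate 1 (0.20 to 0.24, adjusted p = 0.0595 to 0.0814).

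GCH1 (ENSG00000131979; chromosome 14, 54842008 to 54902852, minus strand) encodes the first enzyme of tetrahydrobiopterin synthesis. Its libraries ranged from 4.19 to 7.93 CPM, the lowest being 3 h replicate 2. Against 0 h it was not called at any time or in any alternative, with -0.33 (SE 0.166, adjusted p = 0.176) at 3 h. It rose by 0.48 from 3 to 6 h (adjusted p = 0.0227), a call lost without 3 h replicate 2 or 6 h replicate 3 (0.37 to 0.38, adjusted p = 0.115 to 0.118) and with close pairs averaged (0.43, adjusted p = 0.0674).

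LCN2 (ENSG00000148346; chromosome 9, 128149071 to 128153455, plus strand) encodes lipocalin, a secreted protein that binds bacterial iron carriers. It was the only one of the 10 genes called lower than at 0 h. Its libraries read 3.67, 2.74 and 3.42 CPM at 0 h, 3.29 and 4.27 CPM at 1 h, 3.63, 3.11 and 3.30 CPM at 3 h, and 2.09, 2.32 and 1.67 CPM at 6 h. They read 0.411, 0.502 and 0.944 CPM at 12 h, and 0.703, 0.310 and 0.133 CPM at 24 h, the last from 12, 5 and 2 counts. The groups up to 3 h overlapped, all 6 h libraries lay below them, and all 12 and 24 h libraries lay below those at 6 h. Fitted levels fell to 19.3% of 0 h at 12 h (log2 fold change -2.37, SE 0.307, adjusted p = 5.1e-05) and 12.2% at 24 h (-3.04, SE 0.341, adjusted p = 4.4e-06). At 24 h the fold change was below that of all but 0.130% of genes tested. The few counts limit its size, which was -3.82 without 24 h replicate 1. The call at 6 h (-0.70, SE 0.257, adjusted p = 0.0442) was lost when any 1 of 7 libraries was left out (0 h or 3 h replicate 1 or 3, or any at 6 h: -0.81 to -0.57, adjusted p = 0.0512 to 0.177). It was also lost with DESeq2 (-0.70, adjusted p = 0.0527), with close pairs averaged (-0.71, adjusted p = 0.0717) and with the length trend removed (-0.51, adjusted p = 0.122). At 12 h DESeq2 gave LCN2 no adjusted p (log2 fold change -2.39), and at 24 h it called it lower (-3.07, adjusted p = 3.1e-11).

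**Figure D4:**
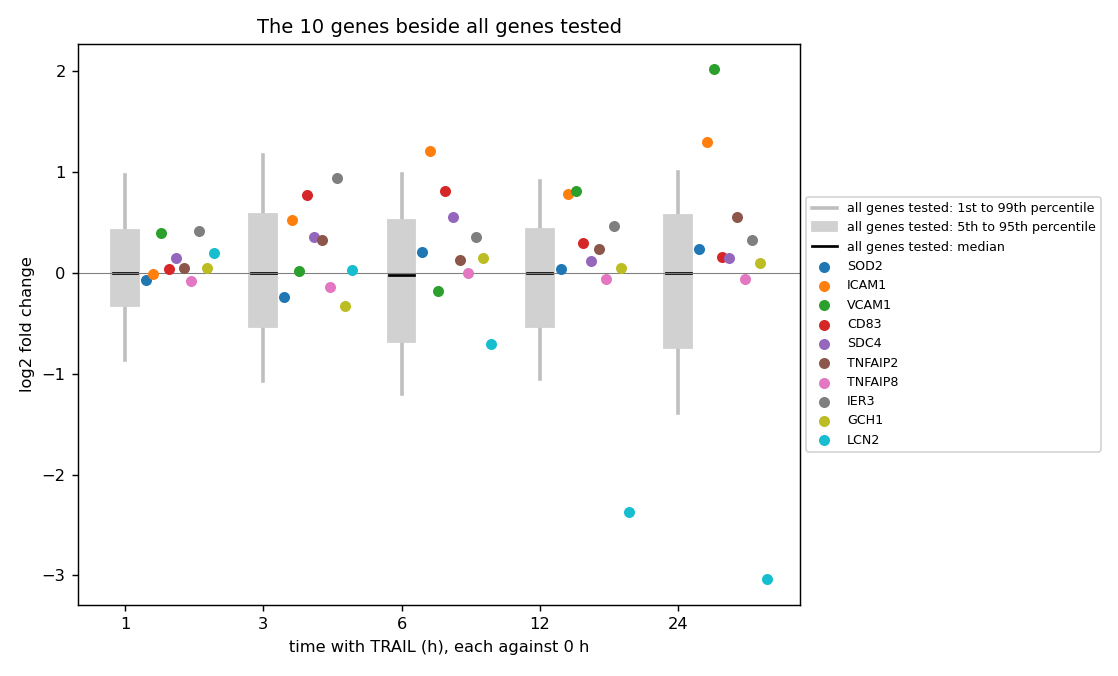
Log2 fold change against 0 h (vertical axis) at each later time (horizontal axis) for the 10 genes (points, coloured by gene), with grey boxes and lines for the spread of all 15365 genes tested between the percentiles named in the legend. ICAM1 at 6 and 24 h and VCAM1 at 24 h lie above the grey lines and LCN2 at 12 and 24 h lies below them, while the others lie inside.

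Steps between neighbouring times were called for several genes at once. From 1 to 3 h 5 of the 10 genes were called, all of them higher, beside 5.73% of all genes called and 3.17% called higher. Without 3 h replicate 1 the number was 3. In this step the call of SDC4 (0.21, adjusted p = 0.0454) was lost in 18 of 29 other settings. That of TNFAIP2 (0.28, adjusted p = 0.0274) was lost in 4. From 3 to 6 h 7 were called, 4 higher and 3 lower, beside 22.9% and 20.3% of all genes (43.2% in either direction), and 4 without 6 h replicate 3. Of the 3 lower, IER3 kept its call in all 29 other settings. TNFAIP2 (-0.20, adjusted p = 0.0183) lost its call in 6 of them and LCN2 (-0.73, adjusted p = 0.0289) in 4. From 6 to 12 h 1 was called higher and 4 lower, beside 8.70% and 11.9% (20.6% in either direction), and the one that rose was VCAM1 (0.99, adjusted p = 0.0156). That rise was lost without 6 h replicate 2 (0.80, adjusted p = 0.0837) and with close pairs averaged (0.96, adjusted p = 0.0565). From 12 to 24 h 3 were called, ICAM1, VCAM1 and TNFAIP2, all higher, beside 12.0% called and 6.42% called higher.

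The rest of the pathway gives the setting of these genes. Of 21 genes for NF-kB subunits, IkB inhibitors, kinases and feedback regulators, 2, 16, 19, 11 and 14 were called higher than at 0 h after 1, 3, 6, 12 and 24 h, and all their calls against 0 h were in that direction. These are 9.52%, 76.2%, 90.5%, 52.4% and 66.7% of the list, beside 0.260%, 9.04%, 16.9%, 5.96% and 18.0% of all genes called higher. Their median log2 fold changes were 0.049, 0.53, 0.67, 0.26 and 0.61 in that order. The count after 1 h was 1 without 0 h replicate 2 or 3 or either 1 h replicate. BIRC3, an inhibitor of apoptosis, rose by 2.22 at 3 h and 2.04 at 24 h, and the adaptor TRAF1 by 1.53 and 1.60. NFKBIA, which encodes the inhibitor IkB-alpha, rose by 1.39 at 3 h, and TNFAIP3, which encodes the ubiquitin-editing enzyme A20, by 1.57. NFKBIA stood 0.43 above 0 h at 12 h and 0.79 above it at 24 h.

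Among 30 other non-cytokine targets of NF-kB, 26 were tested, and BCL2A1, OLR1, MMP9 and CD69 had too few counts. Of the 26, 3 rose at 1 h, and 10, 12, 6 and 8 rose at 3, 6, 12 and 24 h, which are 11.5%, 38.5%, 46.2%, 23.1% and 30.8% of those tested, beside the shares of all genes called higher given for the pathway genes. At 3 h 1 of them fell, or 3.85%, beside 8.71% of all genes called lower. At 6, 12 and 24 h 4 fell, or 15.4% each time, beside 13.2%, 6.48% and 17.1% of all genes called lower. The falls at 6 and 24 h were thus near the share over all genes. From 3 h on their medians, 0.027, 0.24, 0.059 and 0.073, lay nearer to 0 than those of the 21 pathway genes. ZC3H12A, an RNase that destroys cytokine mRNA, rose by 1.05 at 1 h and 1.30 at 3 h, and JUNB, a subunit of AP-1, by 0.79 and 1.75. GFPT2, an enzyme of hexosamine synthesis, rose by 0.45 at 6 h, 0.36 at 12 h and 0.76 at 24 h. C3, the central complement component, chosen after its values were seen, fell by 1.91 at 12 h and 2.03 at 24 h, times at which LCN2 also fell.

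**Figure D5:**
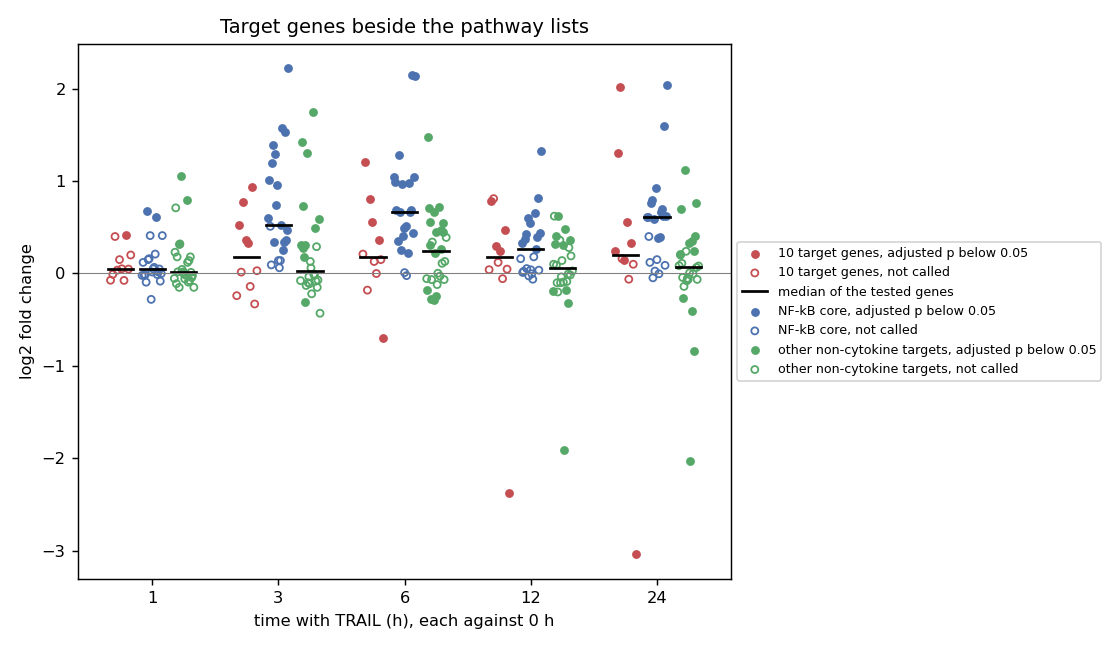
Log2 fold change against 0 h (vertical axis) of each tested gene at each later time (horizontal axis), for the 10 genes (red), the 21 pathway genes, named NF-kB core (blue), and the other targets (green), filled where the adjusted p was below 0.05, with black bars at the medians. The pathway genes have medians of 0.53 at 3 h and 0.67 at 6 h, and the 10 genes have medians between 0.049 and 0.20.

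For the 3 genes with the largest F statistic, the genes whose log2 CPM followed them most closely over the 17 libraries were sought among 11361 genes, as a description without a test, since all share the same libraries and times. ICAM1 was most like TNIP1 (Pearson's r = 0.970, Spearman's rho = 0.922), B4GALT5 (0.967 and 0.966) and OTULIN (0.965 and 0.956). CD83 was most like CDC42SE1 (0.946 and 0.833), PPP1R18 (0.940 and 0.826) and UAP1 (0.925 and 0.875). The nearest genes to IER3 were JUNB (0.926 and 0.819), C11orf68 (0.912 and 0.858) and MIDN (0.908 and 0.819).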

How the data were processed

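RNA of MDA-MB-231 cells was sequenced from stranded, paired-end mRNA libraries, per the labels' protocols. The authors deposited RSEM expected counts per gene (RSEM by the table's name), which are estimated counts not scaled to depth or length. The submitters' processing notes list cutadapt 1.18, STAR 2.7.0f and build hg38. The RSEM version, annotation release and strand setting are not given in the sources used here. Fractional values made up 10.8% of the deposited expected counts (tolerance 1e-06).

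Expected counts were rounded. In edgeR 4.0.16 (R 4.3.3), filterByExpr (minimum count 10) and TMM were applied, and 1 robust quasi-likelihood model, with each time as a group, was fitted to all 17 libraries, with p-values adjusted over 15365 genes. Positions come from GENCODE 29, whose genes matched 58597 of 58870 entries with the version ignored. Promoter sequences come from RefSeq (GRCh38.p14). Alternatives were RLE, upper-quartile and library-size scaling, DESeq2 1.42.0, limma-voom (limma 3.58.1), no filter, a minimum mean count of 10, 2-group fits, a replicate block, each library left out, close pairs averaged, a gene-length trend removed and equal symbols summed. The calling script was checked on simulated counts for 3 h against 0 h alone, with genes of low counts left unchanged.

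All 10 genes are named. From each pathway list the 4 genes with the largest absolute log2 fold change among those called at 3 or more times are named, except that some items are not reported here, and likeness was sought for 3 genes above an average log2 CPM of 2. The genes and lists were chosen with earlier results of these data known. No column lacked a sample.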

Additional observations from a re-analysis of the deposited data

How the results depend on the processing

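Under 29 alternatives, 2463 values of the 10 genes kept direction and side of the threshold in 2320 cases, were no longer called in 84, became called in 25 and changed sign in 34, the last all among uncalled values. DESeq2 gave no adjusted p to VCAM1 and LCN2 at 12 h, which are not among the 2463. The causes were not tested. With 2-group fits, 3 of the 10 genes were called from 1 to 3 h and 1 pathway gene at 1 h. With 1 library left out, the number of the 10 genes called ran from 0 to 1 at 1 h, 3 to 6 at 12 h, 3 to 5 from 1 to 3 h and 4 to 7 from 3 to 6 h, and pathway genes at 1 h from 1 to 2. At 1 h the count was also 0 with close pairs averaged. Where edgeR gave 0 there, 1 or 2 of the 10 genes had an unadjusted p below 0.05, and DESeq2 and limma-voom on all libraries each called 1. Leaving out a 1 h library leaves 1, assumed to vary like the others.

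Sign changes by scaling with library size were -0.010 for CD83 at 1 h, -0.055 for VCAM1 and -0.038 for LCN2 at 3 h, and 0.00062 at 6 h and 0.013 at 24 h for TNFAIP8. That scaling moved the median of all genes from 3 to 24 h from -0.0042 to 0.14. Removing the length trend gave -0.034 for SOD2 at 12 h and -0.064 for LCN2 at 3 h. VCAM1 at 3 h was -0.0067 without a filter and -0.090 with limma-voom, and TNFAIP8 at 6 h 0.0018, 0.00043 and, with close pairs averaged, 0.016. Leave-one-out values that crossed 0 ran at 1 h from -0.23 to 0.067 for SOD2, -0.084 to 0.032 for ICAM1, -0.046 to 0.14 for TNFAIP2 and -0.26 to 0.30 for GCH1. At 3 h they ran from -0.39 to 0.36 for VCAM1 and -0.083 to 0.12 for LCN2, and at 6 h from -0.36 to 0.020 for VCAM1 and -0.059 to 0.069 for TNFAIP8. TNFAIP8 ran from -0.10 to 0.0083 at 12 h and -0.13 to 0.0062 at 24 h, and GCH1 from -0.041 to 0.11 and -0.042 to 0.18.

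Deviations of same-numbered libraries correlated at a median of 0.0108 (-0.199 to 0.211, 40 pairs) against -0.00865 for different numbers, and 7 of 17 libraries correlated best with their own number, so the numbers were not taken to pair the libraries. With the replicate number as a block, 1, 6, 4, 5 and 7 of the 10 genes were called after 1, 3, 6, 12 and 24 h. LCN2 at 6 h was then not called (adjusted p = 0.0518), and ICAM1 at 1 h was 0.020.

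Counts over all genes moved beyond 1.5 times without a filter at 1 h (195 against 48) and with close pairs averaged at 6 h (2532 against 4627) and 24 h (3464 against 5388). Averaging also gave 1670 against 3168 from 6 to 12 h, 452 against 1847 from 12 to 24 h and 1911 against 3561 from 6 to 24 h, and a 2-group fit gave 312 against 880 from 1 to 3 h. With 1 library left out, they ran from 27 to 48 at 1 h, 1412 to 3029 at 3 h, 2663 to 4970 at 6 h, 724 to 2147 at 12 h and 3444 to 5798 at 24 h. Steps ran from 271 to 975 between 1 and 3 h, 1803 to 3476 between 6 and 12 h and 583 to 2789 between 12 and 24 h. Depth limits VCAM1 and LCN2, with 9 to 89 counts of VCAM1 and as few as 2 of LCN2 in a library.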
